A study of Homo sapiens with 16 samples.

Results

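Sprouty and SPRED proteins are inhibitors of the RAS-ERK pathway, and 8 genes of this system were followed in Jurkat cells exposed to hydrogen peroxide. They are the inhibitors SPRY1, SPRY2, SPRY4, SPRED1 and SPRED2, the ERK kinase MAPK3 (ERK1), and the MEK kinases MAP2K1 (MEK1) and MAP2K2 (MEK2). The genes were taken by symbol from the 60662 gene identifiers of the count tables, with the version number dropped, and all 8 were found. All 8 passed the filter on low counts that left 14092 genes for testing, so 14084 other genes formed the rest of the table. SPRY4 reached the filter's level of 1.14 CPM in 8 of 8 peroxide libraries and in 5 of 8 control libraries, and the other 7 genes reached it in every library.

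The cells were wild-type Jurkat E6-1, a cloned human T cell line grown from a leukaemia and labelled as lymphoma, kept in RPMI medium with serum. The peroxide group (8 libraries) was suspended in phosphate-buffered saline with hydrogen peroxide at 10 µM for 4 h. The control group (8 libraries) was untreated and collected at 0 h. No group held in saline alone for 4 h was analysed here, so peroxide, saline and time cannot be told apart. File names place 4 libraries of each group in each of 2 batches and do not say what a batch is. The libraries are named as biological replicates, but separate cultures are not stated, so p-values measure the spread between these libraries, which may be technical.

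Reads in genes numbered 5556553 to 15720881 per library. The share of reads not aligned uniquely was 33.3% to 45.8% in peroxide libraries and 30.2% to 47.2% in control libraries, where control replicate 1 held 47.2% and the other 7 held 30.2% to 33.7%. In batch 2 the groups did not overlap, at 35.7% to 45.8% after peroxide and 31.8% to 33.7% in controls. The part of this share in the results was not tested. The T cell identity of the cells was seen in both groups, and all 15 T cell markers were tested. Their summed level was 3810 to 4860 CPM (counts scaled to library size with TMM factors) after peroxide and 3949 to 4850 CPM in controls. At the threshold given below, 0 of the 15 rose and 5 fell, against 24.1% and 24.3% of all tested genes. The summed level of 6 myeloid markers was higher after peroxide, at 4.78 to 16.5 CPM against 0.500 to 1.26 CPM in controls, mainly through CD14 and ITGAM, which passed the filter through their peroxide libraries alone. The other 4 myeloid markers were not tested: summed over the libraries of a group, CD68 had 73 reads after peroxide and 18 in controls, MPO had 70 after peroxide and 4 in controls, CSF1R had 22 after peroxide and 5 in controls, and LYZ had 8 after peroxide and 3 in controls. The 6 B cell markers summed to 37.1 to 61.4 CPM after peroxide and 39.5 to 56.7 CPM in controls, with MS4A1 at 0 and 1 reads in all. Of the 7 fibroblast and epithelial markers, COL1A2 and EPCAM had 0 reads in every library, and the summed level was 2.89 to 6.87 CPM after peroxide and 3.19 to 4.76 CPM in controls. The 5 erythroid markers summed to 0.209 to 0.867 CPM after peroxide and 0 to 0.122 CPM in controls, with HBB at 0 reads throughout. The part of these markers in the results was not tested. In such bulk RNA, fewer cells of a type and less RNA per cell cannot be told apart.

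In the RAS-ERK pathway, a receptor switches on the small GTPase RAS, RAS activates RAF kinases, RAF phosphorylates the MEK kinases and MEK phosphorylates the ERK kinases, which then act on many proteins and transcription factors. In T cells the pathway carries signals from the antigen receptor. Sprouty and SPRED proteins share a cysteine-rich C-terminal domain and restrain the pathway at the level of RAS and RAF, and SPRED proteins recruit neurofibromin (NF1), which turns RAS off. Several of the inhibitors are themselves transcribed in response to ERK activity and so form a negative feedback loop.

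The promoters of 4 inhibitors are shown because SPRY4 and SPRED2 rose, SPRY1 fell and SPRY2 did not pass the test, as described below. Each window runs from 250 bases before an annotated start site to 50 bases from it, comes from RefSeq on GRCh38.p14, and is written 5′ to 3′ on the gene's strand. The capitals mark matches to GGGCGG (GC box), GCGGGGGCG (EGR motif) and TGACTCA (AP-1 motif) on either strand. In SPRY1 the EGR match and a GC box overlap, and so do those of SPRY2.
SPRY4, chr5:142324198-142324497, minus strand: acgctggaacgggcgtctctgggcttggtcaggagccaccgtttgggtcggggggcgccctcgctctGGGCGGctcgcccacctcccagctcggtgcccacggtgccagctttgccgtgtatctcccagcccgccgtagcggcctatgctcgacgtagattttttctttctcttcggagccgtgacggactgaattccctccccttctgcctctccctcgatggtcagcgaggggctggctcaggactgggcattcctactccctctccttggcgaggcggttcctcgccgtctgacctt
SPRY1, second start site, chr4:123398136-123398435, plus strand: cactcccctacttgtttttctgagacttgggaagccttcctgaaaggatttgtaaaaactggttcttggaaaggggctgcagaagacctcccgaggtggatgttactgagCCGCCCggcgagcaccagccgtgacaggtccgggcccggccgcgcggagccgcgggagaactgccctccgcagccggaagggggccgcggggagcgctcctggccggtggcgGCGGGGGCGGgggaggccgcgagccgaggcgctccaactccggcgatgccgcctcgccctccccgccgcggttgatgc
SPRY2, first start site, chr13:80341077-80341376, minus strand: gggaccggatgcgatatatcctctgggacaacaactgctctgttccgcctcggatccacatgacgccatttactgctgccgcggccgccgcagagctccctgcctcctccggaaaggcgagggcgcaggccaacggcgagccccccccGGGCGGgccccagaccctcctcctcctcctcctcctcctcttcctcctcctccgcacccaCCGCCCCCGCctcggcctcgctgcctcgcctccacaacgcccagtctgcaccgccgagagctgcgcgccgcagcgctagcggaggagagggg
SPRED2, second start site, chr2:65366729-65367028, minus strand: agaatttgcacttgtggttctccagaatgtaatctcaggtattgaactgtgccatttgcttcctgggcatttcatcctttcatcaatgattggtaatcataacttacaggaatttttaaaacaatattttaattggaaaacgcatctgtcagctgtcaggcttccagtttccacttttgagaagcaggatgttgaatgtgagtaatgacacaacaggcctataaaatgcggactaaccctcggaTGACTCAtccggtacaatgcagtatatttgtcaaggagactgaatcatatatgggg

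Of the motifs searched in SPRY4's single window, which was 65.0% G and C, the GC box alone was found, and 45.0% of all 35116 promoter windows held one. The second SPRY1 window and the first SPRY2 window each held an EGR motif, found in 5.07% of all windows. The first SPRY1 window and the second SPRY2 window held none of the motifs searched, and the third SPRY2 window held a GC box alone. The SPRED2 window held an AP-1 motif, found in 4.95% of all windows, at the second start site and not at the first. The CRE motif TGACGTCA (1.85% of all windows), the ETS motif CCGGAAGT (4.14%), the heat shock motif GAANNTTC (6.77%), the amino acid response motif TGATGCAAT (0.236%) and the SRF CArG box (1.29%) were found in none of the 14 windows of the 8 genes. MAPK3 held the E-box CACGTG (7.26% of all windows), an EGR motif and 8 GC boxes in a window of 80.7% G and C. These are matches of letters in windows of this length, and which start sites the cells used was not measured.

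Of the 8 genes, 4 were called with edgeR's quasi-likelihood test at a Benjamini-Hochberg adjusted p under 0.05, against 48.3% of all tested genes. SPRY4, SPRED2 and MAP2K1 rose (3 of 8, against 24.1% of tested genes) and SPRY1 fell (1 of 8, against 24.3%). Scaling by total counts gave 2822 genes higher and 4375 lower, where TMM scaling gave 3391 and 3419, and left 1 of the 8 genes, SPRY4, called higher. In batch 1 alone 1 of the 8 rose and 1 fell, against 20.4% and 17.2% of tested genes (37.6% in either direction), and in batch 2 alone 2 rose and 1 fell, against 19.4% and 19.1% (38.4%). SPRY4 was also the single gene of the 8 whose 2 groups did not overlap, a pattern seen in 11.3% of tested genes. Among the 8 genes the 2 largest differences were thus those of SPRY4 and SPRY1, in opposite directions, while the estimates for the 3 kinases lay between -0.09 and 0.16 on the log2 scale.

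**Figure D1:**
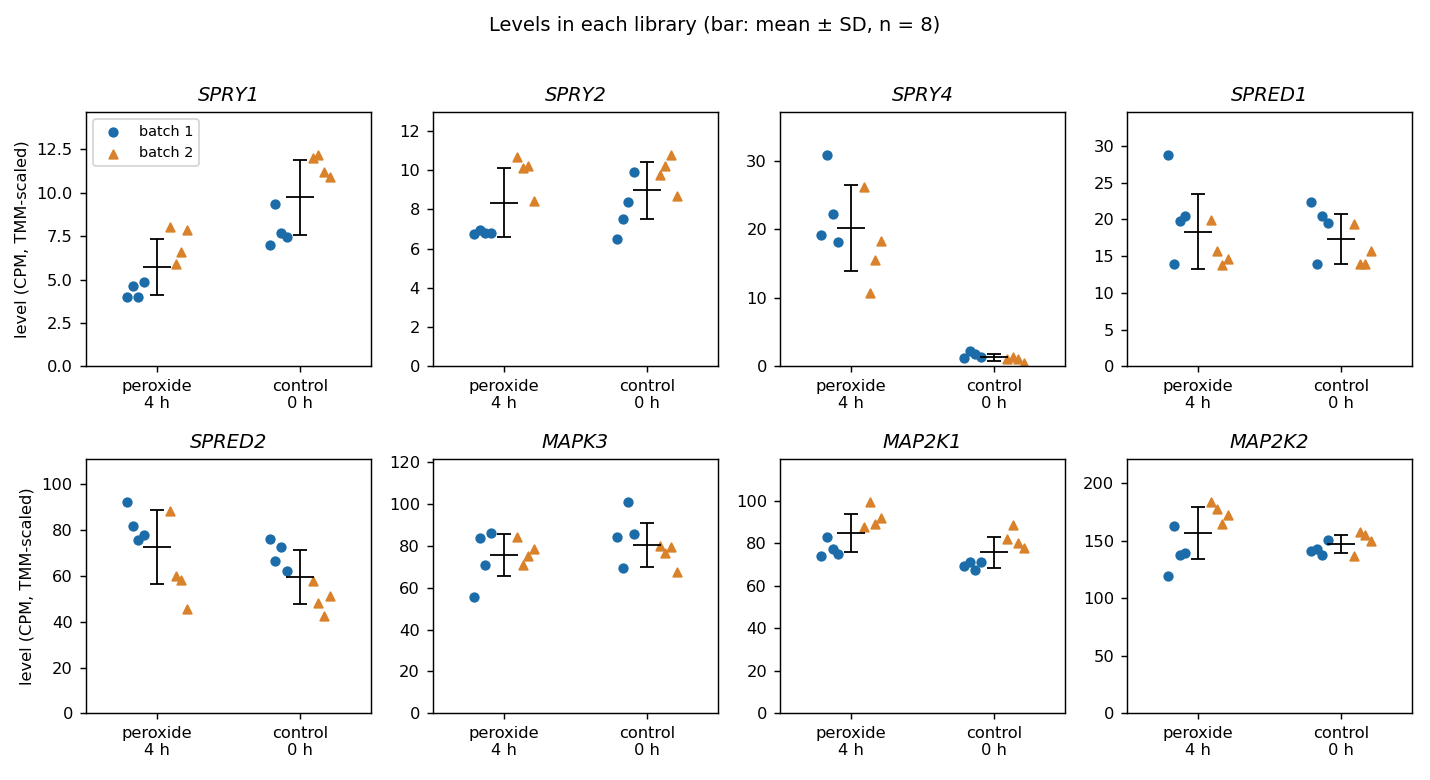
Level of each gene (CPM with TMM scaling, linear axes from 0) in 8 peroxide libraries (left) and 8 control libraries (right), with circles for batch 1, triangles for batch 2, and bars for the mean ± SD. SPRY4 lay at 10.7 to 30.9 CPM after peroxide, above all controls at 0.458 to 2.25 CPM, while the groups of the other 7 genes overlapped.

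SPRY4 (ENSG00000187678.9, chromosome 5), an inhibitor of receptor-driven RAS activation that ERK signalling can induce, was nearly silent in the controls and clearly present after peroxide. In the peroxide libraries the lowest, median and highest levels were 10.7, 18.8 and 30.9 CPM. Control libraries had 0.458, 1.25 and 2.25 CPM, from 4 to 23 reads each. Every peroxide library lay above every control, in each batch. The mean was 20.2 ± 6.29 CPM after peroxide and 1.31 ± 0.541 CPM in controls (SD, n = 8 each), a 15.4-fold rise with a 95% interval of 11.4 to 20.8. On the log2 scale the change was 3.94 ± 0.21 (SE; edgeR, Benjamini-Hochberg adjusted p = 2.76e-12), and 69 of the 14092 tested genes had a larger positive fold change. Batch 1 alone gave 3.83 ± 0.24 and batch 2 alone 4.06 ± 0.31 on the log2 scale. The level was uneven in both groups. Coefficients of variation after peroxide were 25.4% in batch 1 and 36.8% in batch 2. In controls, at few reads, they were 29.8% in batch 1 and 38.9% in batch 2. The antisense gene SPRY4-AS1, which lies across the SPRY4 gene without sharing exons, had 2 reads in all peroxide libraries and 2 in all control libraries.

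SPRY1 (ENSG00000164056.11, chromosome 4), the family's other inhibitor with a clear difference, moved the opposite way. Its lowest, median and highest levels were 3.97, 5.38 and 8.04 CPM in peroxide libraries. In control libraries they were 6.98, 10.1 and 12.2 CPM. Over both batches the groups overlapped, with 6 of 8 peroxide libraries below every control. Within each batch they did not overlap, because batch 2 stood higher in both groups: peroxide libraries held 3.97 to 4.88 CPM against 6.98 to 9.38 CPM in controls of batch 1, and 5.87 to 8.04 CPM against 10.9 to 12.2 CPM in controls of batch 2. SPRY1 fell by 0.76 on the log2 scale (SE 0.10; edgeR, Benjamini-Hochberg adjusted p = 2.53e-06), to 5.72 ± 1.63 CPM against 9.73 ± 2.14 CPM in controls (SD, n = 8 each), and 2.09% of tested genes had a lower fold change. The 2 batches alone gave -0.83 ± 0.17 and -0.71 ± 0.14.

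SPRY2 (ENSG00000136158.12, chromosome 13), a widely studied Sprouty that binds the ubiquitin ligase CBL, did not pass the test. Peroxide libraries had 6.74, 7.69 and 10.7 CPM as lowest, median and highest levels. Controls had 6.48, 9.23 and 10.8 CPM. The groups overlapped almost completely, and the 4 treated libraries of batch 1 were close together at 6.74 to 6.94 CPM. The log2 difference was -0.11 ± 0.10 with a 95% interval of -0.32 to 0.10 (edgeR, Benjamini-Hochberg adjusted p = 0.386). Batch 1 alone gave -0.24 ± 0.17 and batch 2 alone -0.00 ± 0.13.

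The makeup of the Sprouty transcripts differed between the groups. Divided by the exon length of each gene, SPRY4 made up 42.1% ± 10.5 of the 3 Sprouty transcripts after peroxide and 3.71% ± 1.77 in controls (SD, n = 8 each), with no overlap between groups. SPRY1 made up 19.8% ± 4.21 after peroxide and 43.5% ± 4.49 in controls, again with no overlap. SPRY2 held 38.1% ± 7.32 after peroxide and 52.8% ± 4.13 in controls. The shares of a library add up to the whole, so a rise of SPRY4 by itself lowers the other shares. By level SPRY1 was called lower, and its groups overlapped over both batches but not within either batch. SPRY2 was not called by level. The summed level of the 3 Sprouty transcripts was 6.15 to 9.55 CPM per kb after peroxide and 4.07 to 6.65 CPM per kb in controls. The ranges of the sum thus overlapped. The ratio of SPRY4 to SPRY1 per kb averaged 2.31 (1.10 to 4.04) after peroxide and 0.0876 (0.0254 to 0.145) in controls. These shares and ratios are descriptions without a test of their own. The exon lengths came from GENCODE release 29, since the sources used here do not name the annotation behind the counts.

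**Figure D2:**
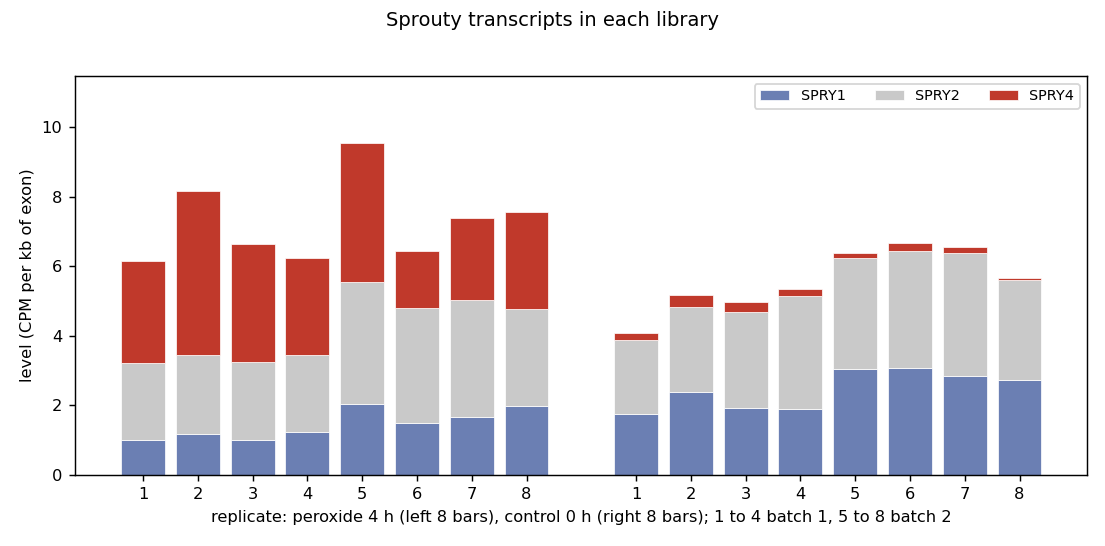
Level of SPRY1, SPRY2 and SPRY4 (CPM per kb of exon, stacked from 0) in each peroxide library (left 8 bars) and each control library (right 8 bars). SPRY4 is the main addition after peroxide, at 42.1% of the sum on average against 3.71% in controls, while SPRY1 is 19.8% of it against 43.5% in controls.

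SPRED2 (ENSG00000198369.10, chromosome 2), which restrains RAF activation, was the more abundant SPRED and rose slightly. The lowest, median and highest levels were 45.7, 76.9 and 92.4 CPM in peroxide libraries. They were 42.5, 59.8 and 76.0 CPM in controls. The ranges overlapped and 4 of 8 treated libraries lay above every control. The mean was 72.5 ± 16.2 CPM after peroxide and 59.6 ± 11.9 CPM in controls (SD, n = 8 each), a log2 change of 0.29 ± 0.10 (edgeR, Benjamini-Hochberg adjusted p = 0.0198). This call was lost with scaling by total counts (adjusted p = 0.0524), without a batch term (0.138), and in batch 1 (0.0693) or batch 2 (0.0960) alone, where the estimates were 0.24 ± 0.10 and 0.35 ± 0.16 by edgeR. The level also differed between batches, with 82.0 ± 7.37 CPM after peroxide and 69.3 ± 6.27 CPM in controls of batch 1, and 63.0 ± 17.9 CPM after peroxide and 49.8 ± 6.28 CPM in controls of batch 2 (SD, n = 4 each).

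SPRED1 (ENSG00000166068.13, chromosome 15), the family member whose loss causes Legius syndrome in humans, was not called. It had 13.8, 17.7 and 28.8 CPM as lowest, median and highest levels after peroxide. Controls had 13.9, 17.5 and 22.3 CPM. The groups overlapped, and the log2 difference was 0.08 ± 0.13 with a 95% interval of -0.19 to 0.34 (edgeR, Benjamini-Hochberg adjusted p = 0.658). Without the highest library, peroxide replicate 1, it was -0.03 ± 0.12. SPRED2 made up 86.3% ± 2.23 of the 2 SPRED transcripts per kb after peroxide and 84.5% ± 1.79 in controls, and the ranges of this share overlapped. SPRED3, a relative outside the 8 genes, rose to 6.31 ± 2.26 CPM against 1.91 ± 0.448 CPM in controls, by 1.72 ± 0.23 on the log2 scale (edgeR, Benjamini-Hochberg adjusted p = 3.21e-06). SPRY3 had 2 reads in all peroxide libraries and 0 in all control libraries and was not tested.

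MAP2K1 (ENSG00000169032.9, chromosome 15), which encodes MEK1, rose by a small amount. Peroxide libraries had 74.1, 85.2 and 99.5 CPM as lowest, median and highest levels. Controls had 67.4, 74.3 and 88.4 CPM. The ranges overlapped, 7 of 8 treated libraries lay above the control median, and in batch 1 all 4 treated libraries lay above all 4 controls. The log2 change was 0.16 ± 0.05 (95% interval 0.05 to 0.26; edgeR, Benjamini-Hochberg adjusted p = 0.0123), a 1.12-fold difference. The call was lost with total counts (adjusted p = 0.116), without a batch term (0.118), without the low-count filter (0.336), and in batch 1 (0.175) or batch 2 (0.0675) alone, all by edgeR. Exons of MAP2K1 overlap those of SNAPC5, a subunit gene of the snRNA-activating complex on the other strand, which rose by 0.34 ± 0.07 on the log2 scale, and of an unnamed antisense gene that rose by 1.17 ± 0.14. Reads of such overlapping genes cannot be told apart without the strand setting of the counting.

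MAP2K2 (ENSG00000126934.13, chromosome 19), which encodes MEK2, did not pass over both batches. Its lowest, median and highest levels were 119, 164 and 184 CPM after peroxide. In controls they were 137, 147 and 158 CPM. The treated libraries were the more spread, with 5 above every control and 1 below every control. The log2 difference was 0.09 ± 0.06 with a 95% interval of -0.04 to 0.23 (edgeR, Benjamini-Hochberg adjusted p = 0.244). In batch 2 the groups did not overlap, at 165 to 184 CPM after peroxide and 137 to 158 CPM in controls, and the gene was called there, at 0.22 ± 0.07 (edgeR, Benjamini-Hochberg adjusted p = 0.0171), while batch 1 gave -0.04 ± 0.10.

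MAPK3 (ENSG00000102882.12, chromosome 16), which encodes ERK1, was not called either. The lowest, median and highest levels were 55.5, 76.7 and 86.0 CPM after peroxide. Controls had 67.5, 79.5 and 101 CPM. The groups overlapped, and the log2 difference was -0.09 ± 0.09 with a 95% interval of -0.27 to 0.09 (edgeR, Benjamini-Hochberg adjusted p = 0.432), or a fold between 0.829 and 1.07. Between the 2 MEK genes, MAP2K2 exceeded MAP2K1 per kb in every library, by 1.33 ± 0.103 times after peroxide and 1.39 ± 0.108 times in controls (SD, n = 8 each).

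**Figure D3:**
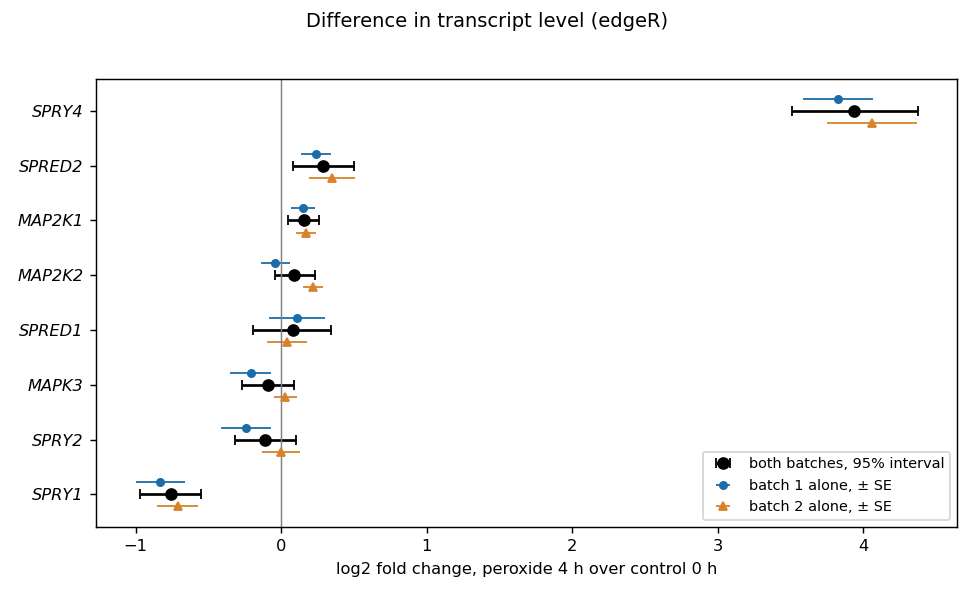
Log2 fold change, peroxide over control, for the 8 genes (edgeR), with 95% intervals over both batches in black and the estimate ± SE in batch 1 (blue circles) and batch 2 (orange triangles). SPRY4 stands at 3.94 and SPRY1 at -0.76, and the other 6 genes lie between -0.11 and 0.29.

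Ordered by level per kb of exon, the kinases stood above the inhibitors in both groups. After peroxide the order was MAP2K2 (30.0 ± 4.31 CPM per kb), MAP2K1 (22.5 ± 2.39), MAPK3 (20.6 ± 2.74), SPRED2 (14.1 ± 3.15), SPRY4 (3.07 ± 0.958), SPRY2 (2.75 ± 0.579), SPRED1 (2.22 ± 0.613) and SPRY1 (1.44 ± 0.410). In controls it was MAP2K2 (28.0 ± 1.51 CPM per kb), MAPK3 (21.9 ± 2.83), MAP2K1 (20.2 ± 1.94), SPRED2 (11.6 ± 2.31), SPRY2 (2.95 ± 0.483), SPRY1 (2.45 ± 0.539), SPRED1 (2.10 ± 0.408) and SPRY4 (0.200 ± 0.0823; SD, n = 8 each). Neighbours in the order whose means differed by less than the larger of their SDs were MAP2K1 and MAPK3 in both groups, SPRY4 and SPRY2 and also SPRY2 and SPRED1 after peroxide, and SPRY2 and SPRY1 and also SPRY1 and SPRED1 in controls. SPRY4 was last of the 8 in controls and one of the group of low inhibitors after peroxide, not separated from SPRY2.

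Whether the peroxide difference changed with the batch was tested as an interaction across all genes. None of the 8 genes was called (0 of 8 with edgeR and 0 of 8 with DESeq2 at a Benjamini-Hochberg adjusted p under 0.05). Of all tested genes, edgeR called 4.88% (1.87% larger and 3.02% smaller in batch 2). DESeq2 called 544 genes larger and 565 smaller in batch 2. In simulated data the edgeR interaction test recovered 28% of 1.5-fold and 78% of 2-fold differences, so smaller batch differences can be missed. Of the 8 genes 1, MAP2K2, had an unadjusted p under 0.05 with edgeR. For MAP2K2 the difference was larger in batch 2 than in batch 1 by 0.25 ± 0.12 on the log2 scale (edgeR, Benjamini-Hochberg adjusted p = 0.209). Without peroxide replicate 2 it was 0.34 ± 0.10 and was called (edgeR, Benjamini-Hochberg adjusted p = 0.0467). For SPRY4 the interval of this batch difference ran from -0.75 to 1.21 and for SPRY1 from -0.32 to 0.53 on the log2 scale.

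Genes most like each of the 8 were found by Pearson's correlation of log2 CPM over the 16 libraries, which share the same groups and batches. PIM2 and CDKN1A followed SPRY4 most closely (both r = 0.98, and 0.53 and 0.52 once group and batch means were removed). They rose by 1.94 ± 0.10 and 3.73 ± 0.21 on the log2 scale. PIM2 encodes a survival kinase and CDKN1A the cell cycle inhibitor p21. LZTS1 and DCLRE1B followed SPRY1 (r = 0.97 and 0.96, and 0.75 and 0.68 after removal), and fell by 0.59 and 0.51 on the log2 scale. ELK4, a transcription factor that ERK phosphorylates, was most like SPRED1 (r = 0.93), with PANK3 next (0.92), and these kept 0.92 and 0.90 after removal, so the likeness lay in differences between libraries of 1 group. The same held for MAPK3 with IDH2 (0.86 before and after) and RHOC (0.84 and 0.88), and for MAP2K2 with BBLN (0.94 and 0.90) and CTSD (0.92 and 0.87). SPRY2 was nearest to ZSWIM4 (0.92, and 0.75 after removal) and FURIN (0.91 and 0.79). SPRED2 was nearest to EIF4B (0.93, and 0.80 after removal) and CDC23 (0.90 and 0.72). MAP2K1 was nearest to TNFRSF10B and HMX3 (both 0.94, and 0.67 and 0.62 after removal). These are descriptions of 16 libraries without a test.

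Genes that act beside the 8 in the pathway were described by lists, each read against all tested genes, of which 24.1% rose and 24.3% fell, with a median log2 fold change of -0.01. Upstream, among RAS proteins and their exchange factors, 0 of 11 tested genes rose and 2 fell, with a median log2 fold change of -0.02. RASGRP1, the main RAS exchange factor of T cells, fell by 0.38 on the log2 scale to 126 ± 21.8 CPM, against 164 ± 25.9 CPM in controls. In batch 1 alone the difference was -0.34 and was not called (edgeR, Benjamini-Hochberg adjusted p = 0.0799). RRAS (0.34 ± 0.14) and HRAS (-0.17 ± 0.08) were not called (edgeR, Benjamini-Hochberg adjusted p = 0.0508 and 0.0952), and MRAS and RASGRP4 were below the filter. RRAS was called with DESeq2 (adjusted p = 0.0452) and without peroxide replicate 1 (edgeR, adjusted p = 0.00750). HRAS was called in batch 1 alone, at -0.40 (edgeR, adjusted p = 0.00984), and with total counts (0.0276), and stood at 0.04 in batch 2 alone.

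Among adaptors between receptors and RAS, 3 of 13 tested genes rose and 6 fell, against 24.1% and 24.3% of all tested genes, with a median of -0.13. LAT, the scaffold that links the T cell receptor to RAS, fell to 3.98 ± 0.885 CPM, against 11.2 ± 1.49 CPM in controls (SD, n = 8 each), and GRAP2 and CBL fell by 0.43 and 0.46 on the log2 scale. FRS2, the docking protein of fibroblast growth factor receptors, rose by 0.80 ± 0.09. RAS GTPase-activating proteins, which switch RAS off, had 0 higher and 5 lower of 8 tested genes, against 24.1% and 24.3% of all tested genes, with a median of -0.25. NF1, the partner of SPRED proteins, fell to 108 ± 18.6 CPM, against 141 ± 11.2 CPM in controls, by 0.39 on the log2 scale (SE 0.09; edgeR, Benjamini-Hochberg adjusted p = 0.000888). RASA1 and DAB2IP fell by 0.20 and 0.45. In batch 1 alone 1 of the 8 was called lower, against 17.2% of tested genes: NF1 and RASA1 were among those that lost their calls, and in batch 2 alone DAB2IP did (log2 differences -0.25, -0.16 and -0.27; edgeR, Benjamini-Hochberg adjusted p 0.0931, 0.261 and 0.158).

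At the level of RAF, 6 of 12 tested genes rose and 3 fell, against 24.1% and 24.3% of all tested genes, with a median of 0.22. Without a batch term 4 rose and 2 fell, when 2534 of all genes were called higher and 2454 lower. In batch 2 alone 4 rose and 1 fell, against 19.4% and 19.1% of tested genes, with a median of 0.11. ARAF, a RAF kinase, rose to 79.1 ± 6.67 CPM, against 61.1 ± 2.24 CPM in controls, and its groups did not overlap. PPP1CC, a catalytic subunit of a phosphatase that works with SHOC2 on RAF, rose by 0.26 ± 0.07. CNKSR1, a scaffold of RAF, rose by 1.79 ± 0.20 from a low level. It is among the 6 that rose, and passed the filter through its peroxide libraries alone. Among other ERKs and scaffolds of MEK and ERK, 2 of 11 rose and 5 fell, with a median of -0.10. MAPK7 (ERK5), LAMTOR1 and IQGAP1 fell by 0.48, 0.44 and 0.30. In the parallel JNK and p38 cascades 3 of 19 rose and 6 fell, with a median of -0.14; MAPK13 rose by 1.01 ± 0.14 and MAP2K7 by 0.31 ± 0.05, and MAPK14 and MAP3K5 fell by 0.31 and 0.42. Scaling by total counts called 12 of the 19 lower, when it called 4375 of all 14092 tested genes lower, with a median of -0.08. DESeq2 and limma-voom each called 6 of the list lower.

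**Figure D4:**
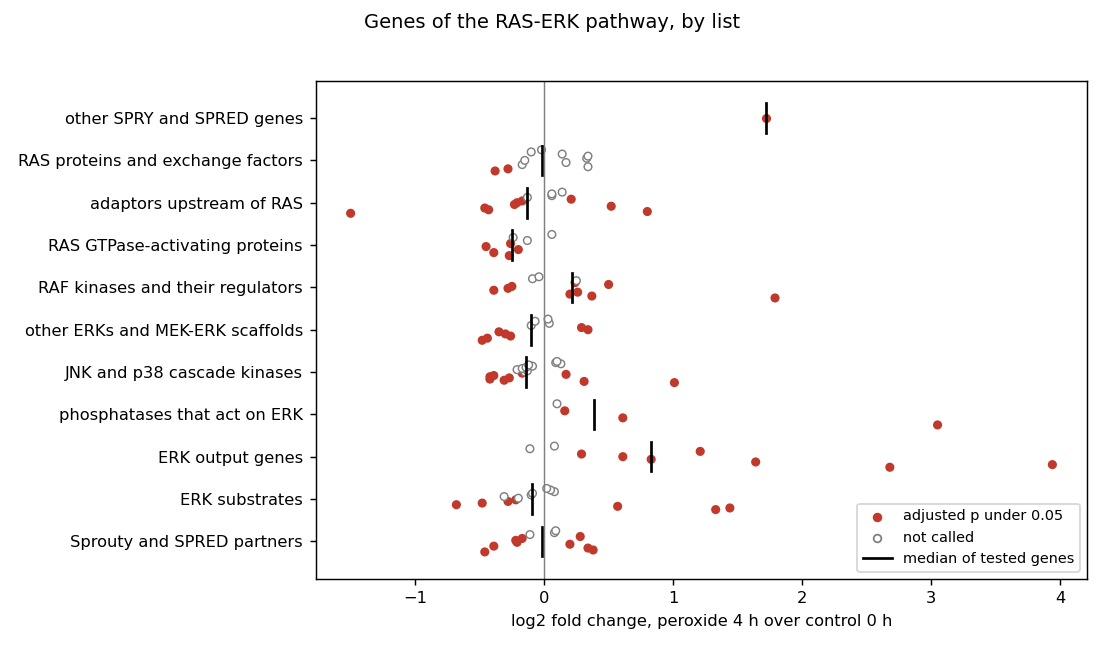
Log2 fold change, peroxide over control, of each tested gene in 11 lists of the pathway (points, filled where the adjusted p was under 0.05) with the median of each list as a black line; lists share some genes, and the output list holds 4 of the 8 genes. ERK output genes lie to the right with a median of 0.83, while most upstream lists lie near 0.

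Downstream, most tested genes on a list of those that ERK activity is known to induce were higher. This list was chosen with earlier results of these data known. Of 16 listed output genes 9 were tested, of which 7 rose and 0 fell, against 24.1% and 24.3% of all tested genes, with a median log2 fold change of 0.83 (1.14 in batch 1 alone and 0.48 in batch 2 alone); 4 of the 9 (SPRY2, SPRY4, SPRED1 and SPRED2) are among the 8 genes themselves. PHLDA1 rose to 21.3 ± 3.88 CPM, against 3.32 ± 1.11 CPM in controls, IER3 to 19.3 ± 8.47 CPM, against 6.12 ± 2.37 CPM in controls, and the transcription factor ETV5 to 10.5 ± 2.87 CPM, against 6.01 ± 2.49 CPM in controls (SD, n = 8 each). The other 7 output genes, among them CCND1, ETV4 and FOSL1, were below the filter. Without a batch term, and in batch 2 alone, 4 of the 9 were called higher. Among phosphatases that act on ERK, 3 of 4 tested genes rose and 0 fell, with a median of 0.39. Without a batch term, or without control replicate 1, the number higher was 1, DUSP5. DUSP5 rose to 28.8 ± 7.86 CPM, against 3.22 ± 1.90 CPM in controls, by 3.05 ± 0.25 on the log2 scale. DUSP6 (0.61 ± 0.21) and PTPN7 (0.16 ± 0.06) were called over both batches and lost the call under several settings, among them batch 2 alone (edgeR, Benjamini-Hochberg adjusted p = 0.558 and 0.0555), and DUSP6 lost it without control replicate 1 (0.0523, at 0.52). PTPN7 lost it without any 1 of 9 libraries, which were control replicates 1, 3, 4, 5, 6 and 8 and peroxide replicates 2, 5 and 6 (edgeR, Benjamini-Hochberg adjusted p 0.0525 to 0.0848).

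Proteins that ERK phosphorylates showed no common direction, with 3 of 14 tested genes higher and 4 lower and a median of -0.10. The repressors ERF and CIC, which ERK inactivates, rose by 1.33 ± 0.07 and 0.57 ± 0.08, the kinase MKNK2 rose by 1.44 ± 0.09, and MYC fell by 0.68. Of 12 tested partners of Sprouty and SPRED proteins, 4 rose and 5 fell, against 24.1% and 24.3% of all tested genes, with a median of -0.01, and without a batch term 2 rose and 2 fell. SIAH2, a ubiquitin ligase that targets Sprouty, rose to 112 ± 11.2 CPM, against 89.3 ± 12.3 CPM in controls, and PPP2CA, the catalytic subunit of a phosphatase that acts on SPRY2, rose by 0.38 ± 0.07. CBL, which binds SPRY2, fell to 154 ± 18.4 CPM, against 212 ± 26.0 CPM in controls (SD, n = 8 each; edgeR, Benjamini-Hochberg adjusted p = 1.62e-06).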

How the data were processed

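RNA was sequenced in 16 libraries. The deposited values are raw read counts per gene, which the authors made with STAR 2.7.1a and HTSeq 0.6.1 on hg19, per the submitters' processing notes; the sources used here give no annotation, counting mode or strand. The 5 rows of each table that name no gene held 43.5% to 57.6% of reads and were left out. Symbols were found for 60402 of 60662 identifiers, and 68.0% of identifiers equal those of GENCODE 29, version included. After filterByExpr (99.6% of reads kept) and TMM scaling, counts were tested with edgeR 4.0.16 in R 4.3.3 (quasi-likelihood; terms for batch and group), with Benjamini-Hochberg adjustment over all genes tested. SEs were derived from the F statistic. The scripts were tested on simulated data. No 2 libraries of a group were alike within sampling noise (chi-square per degree of freedom at least 2.96). Alternatives were DESeq2 1.42.0, limma-voom 3.58.1, other scalings, no filter, no batch term, a replicate block, single batches and each library left out. Promoter sequences came from RefSeq. The 8 genes and all lists were chosen with earlier results of these data known. Named genes were, per list, up to 4 tested genes of lowest p averaging at least 1 CPM, and per member the 2 genes most correlated with it that averaged at least 5 CPM. SPRY3, MRAS, RASGRP4, SNAPC5, SPRY4-AS1, CCND1, ETV4, FOSL1 and the markers were named outside that rule. Some genes that this rule names are not reported here.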

Additional observations from a re-analysis of the deposited data

Results flagged for a closer look

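SPRED1 in peroxide replicate 1, of batch 1, stood at 28.8 CPM, apart from the other 7 peroxide libraries at 13.8 to 20.5 CPM. A gap this wide within a group of 8 arises by chance in about 1 in 20 groups, and 16 groups of values were examined. The same library had the lowest MAPK3 (55.5 CPM) and MAP2K2 (119 CPM) levels of all 16. Without it the log2 difference of SPRED1 was -0.03 and was not called.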

How the results depend on the processing

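SPRY4 and SPRY1 kept their direction and call under every alternative run. SPRED2 lost its call with scaling by total counts (0.23 on the log2 scale), no batch term (0.28), batch 1 alone (0.24) and batch 2 alone (0.35), and MAP2K1 with total counts (0.10), no low-count filter (0.11), no batch term (0.16), batch 1 alone (0.15) and batch 2 alone (0.17). Each batch alone has fewer samples; otherwise the cause was not tested. The genes of the 8 called higher then numbered 1 with total counts, no batch term or batch 1 alone. MAP2K2 was called in batch 2 alone (0.22) and stood at -0.04 in batch 1 alone, and MAPK3 at 0.03 in batch 2 alone. Without the filter 5150 of all genes were called higher, and for the batch difference 403; DESeq2 gave 544 there. Leaving out 1 library at a time gave 3.82 to 4.02 for SPRY4, -0.80 to -0.73 for SPRY1, 0.19 to 0.34 for SPRED2, 0.14 to 0.17 for MAP2K1 and -0.03 to 0.14 for SPRED1. For the batch difference it gave -0.02 to 0.48 for SPRY4, -0.21 to 0.16 for SPRED1, -0.10 to 0.23 for SPRED2, -0.02 to 0.06 for MAP2K1 and 0.21 to 0.34 for MAP2K2. Called genes then numbered 102 to 549 higher and 226 to 680 lower, with 0 to 1 of the 8 higher; the 549 and 680 both came without peroxide replicate 2, the 102 without peroxide replicate 5 and the 226 without control replicate 1.

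Same-numbered libraries did not deviate together (8 pairs, correlations -0.15 to 0.17, 2 over 0.1), and 3 of 8 peroxide libraries correlated best with their own number. With the replicate number as a block, 3313 genes were higher and 3374 lower, and 3 of the 8 genes were higher and 1 lower, with SPRY4 at 3.87, SPRY1 at -0.77, SPRED2 at 0.28 and MAP2K1 at 0.16. SPRY4 had the fewest reads of the 8 genes in controls, 4 to 23 per library.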
